A study of Mus musculus with 2 samples.

Results

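B-cells and T-cells are the 2 lymphocyte classes that make antigen-specific receptors, and here their RNA was compared within the same 11 mice. The cells came from the blood of wild-type male C57BL/6 J mice, with red blood cells lysed and single nucleated cells sorted into plates, and their RNA and DNA methylation were read together by scM&T-seq. The mice had received no treatment and fell into 4 age groups, with 2 mice of 10 weeks and 3 each of 36 weeks, 77 weeks and an older group, called the oldest here. Of the 1055 cells with RNA counts, 929 carried the study's annotation as a B-cell (600 cells) or as 1 of 6 T-cell types (329 cells, 151 of them CD4+ and 178 CD8+), and 49 further annotated cells were of other types. A mouse gave 29 to 78 B-cells and 10 to 49 T-cells. Counts were summed over the B-cells and over the T-cells of each mouse, which gave 22 sums of 6209845 to 31416921 counts, and the sums were compared as 11 pairs. Both members of a pair came from the same animal. The annotation was made from the RNA of these same cells, so the p-values below are no independent evidence that a gene separates the classes. The p-value of a gene depends on the size of its difference, its counts and its spread between mice together.

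In a B-cell, a membrane immunoglobulin binds antigen and signals through CD79A and CD79B to the kinases LYN, SYK and BTK, and the cell then presents the antigen on MHC class II. In a T-cell, an alpha-beta receptor reads peptides held by MHC molecules and signals through the CD3 chains to LCK and ZAP70. Both arms use related proteins in the same order, and CD4+ and CD8+ T-cells differ in the coreceptor and in the MHC class they read.

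The labels were checked against markers of both classes. Levels are in CPM, a gene's counts scaled to a common library total. The 8 B-cell markers together reached 10756 to 13491 CPM in the B-cell sums and 1.08 to 115 CPM in the T-cell sums, and the 8 T-cell markers reached 6496 to 8464 CPM in T-cells and 0.128 to 76.9 CPM in B-cells. Of the 600 B-cells, 13 had a count on Cd3d, Cd3e or Cd3g, and 20 of the 329 T-cells had a count on Cd79a, Cd79b or Ms4a1. A gate on these 6 genes, set without the annotation, took 581 annotated B-cells and 293 annotated T-cells and put 0 cells of either class into the other. Neutrophil markers reached at most 3.77 CPM in any sum, and the 6 monocyte markers summed to 0.945 to 23.5 CPM in B-cells and 0.405 to 2.34 CPM in T-cells. Of these, Lyz2 had 0 counts in B-cells and was found in 1 T-cell, Adgre1 was found in 7 B-cells and 2 T-cells, and Csf1r in 174 B-cells and 126 T-cells at a mean of 1.07 and 1.15 CPM. Their part in the results was not tested. The 5 natural killer cell markers summed to 36.2 to 403 CPM in T-cells and at most 1.46 CPM in B-cells, with Klrb1c in 43 T-cells, Eomes in 43, Prf1 in 42, Klra8 in 10 and Ncr1 in 1. Hemoglobin and other erythroid transcripts were present in both classes, with medians of 30849 CPM in B-cells and 17303 CPM in T-cells, and their part in the results was not tested beyond the comparison of cells of the lowest contamination class given below.

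Of 3843 genes with a count in at least 25% of the cells of either class, 1937 differed between B- and T-cells at a Benjamini-Hochberg adjusted p below 0.1 (edgeR quasi-likelihood test with the mouse as a block, n = 11 pairs), and such genes are named called here. They made up 50.4% of the genes tested, with 948 higher in B-cells (24.7%) and 989 higher in T-cells (25.7%). At least 2-fold differences were seen for 448 genes on the B-cell side (11.7%) and 260 on the T-cell side (6.77%). With sums scaled by their totals alone these were 351 and 380. All 11 mice went in one direction for 869 of the called genes, and the ranges of the 11 mice were apart for 227 genes with B-cells higher (5.91% of those tested) and 153 with T-cells higher (3.98%). The least detected gene tested was found in 25% of the cells of a class and the most detected gene left out in 24.9%. T-cells had more detected genes, so that 1072 genes entered through T-cells alone and 253 through B-cells alone.

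Protein-coding genes and pseudogenes had different splits between the directions. Among 2394 protein-coding genes, 741 were called higher in B-cells and 446 in T-cells, but with sums scaled by their totals alone this turned to 515 and 690. Among 1166 processed pseudogenes, retrocopies whose reads can be shared with the parent gene, 96 were called higher in B-cells and 483 in T-cells (44 and 773 with totals alone). Pseudogenes named after ribosomal proteins accounted for 190 of the genes tested, with 0 higher in B-cells and 114 higher in T-cells. The counting could split reads between a parent and its copies, so calls on pseudogenes are uncertain.

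The scale of the sums bore on the balance between the directions, at small and at large differences. The median log2 difference (B minus T) over all tested genes was -0.0021 with trimmed-mean (TMM) scaling and -0.26 when each sum was scaled by its total alone, where 623 genes were called higher in B-cells and 1545 in T-cells. Of the 1937 called genes, 8 had the other sign with totals alone. With the mean over cells of log2(CPM + 1), the split was 420 to 2506. At 2-fold or more the split was 448 to 260 with TMM scaling and 351 to 380 with totals alone. It was 264 to 971 in the mean of log2(CPM + 1).

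**Figure D1:**
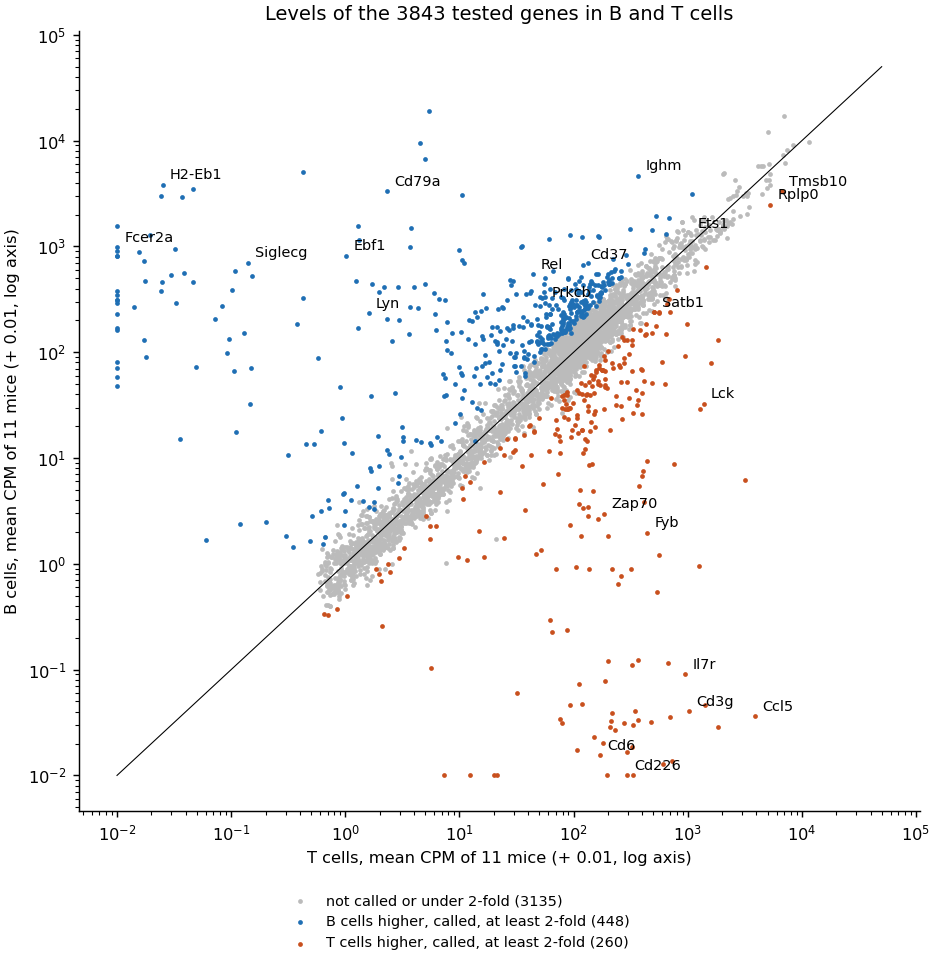
Mean level of each of the 3843 tested genes in T-cells (x axis) and B-cells (y axis), in CPM of 11 mice with 0.01 added, on log axes, with the line of equal levels. The 448 and 260 genes called at 2-fold or more lie above and below the line, and genes such as H2-Eb1, Ccl5 and Cd3g lie at the edges, where the other class held almost no counts.

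The genes with the smallest p-values on the B-cell side, leaving out receptor segments, included Ebf1, H2-DMb2, Ms4a1, H2-Eb1, Ciita, Syk, Lrrk2, Ly86, H2-DMb1, Siglecg and Ctsh. Ms4a1, which encodes CD20, lay at 1918 to 4411 CPM in B-cells and was at 0 counts in the T-cells of 7 mice. Siglecg, an inhibitory receptor of B-cells, had a median of 743 CPM in B-cells and 22 counts over all T-cells. Ly86, the partner of the Toll-like receptor homologue CD180, had 4 counts in T-cells, and Ctsh, a lysosomal protease, had 3. Lrrk2, a kinase known from Parkinson's disease, was found in 35.5% of B-cells at 123 to 507 CPM and in 1 T-cell. The ranges of B- and T-cells were apart for each of these genes.

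Ebf1, a transcription factor that sets B-cell fate (chromosome 11, 44617317 to 45008091, GRCm38), differed from the others in its T-cell counts. In B-cells Ebf1 was found in 87.8% of cells at 582 to 1178 CPM. Ebf1 had a count in 125 of the 329 T-cells. The median count of those T-cells was 1 and the highest was 6, beside a median of 194 in the B-cells with a count, so that the T-cell level of Ebf1 was 1.01 ± 0.275 CPM (SD, n = 11). Csf1r, a monocyte receptor chosen here after its values were seen, was also found at low counts in many cells, with a count in 29.0% of B-cells and 38.3% of T-cells and a median of 1 count in those cells.

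On the T-cell side, leaving out T-cell receptor segments and constant genes such as Trbc2, the first 12 genes were Ccl5, Cxcr6, Nkg7, Cd3g, Fyb, Sh2d1a, Klrk1, Il7r, Cd8a, Cd8b1, Cd6 and Bcl11b. Ccl5, a chemokine released by effector T-cells (chromosome 11, 83525778 to 83530518), lay at 1515 to 7445 CPM in T-cells with a median of 3695 CPM, and had 6 counts in all B-cells. Ccl5 was found in 47.4% of T-cells, with means of 5611 CPM in CD8+ and 1730 CPM in CD4+ T-cells, which were not tested against each other. Cd3g, a chain of the T-cell receptor complex (chromosome 9, 44969572 to 44980431), was found in 93.9% of T-cells at 796 to 1226 CPM (mean 1027 ± 152 CPM) and had the smallest SD in relation to its mean among these 12 genes. Il7r, the receptor of the survival cytokine IL-7, lay at 712 to 1308 CPM in T-cells, and had 15 counts in B-cells. Cxcr6, a homing receptor of effector cells, lay at 39 to 1531 CPM among the T-cells of the mice. Klrk1, which encodes NKG2D, lay at 70.9 to 1214 CPM. Fyb, an adaptor that links the receptor to integrins, differed from the others in being present at a low level in B-cells (1.95 ± 0.658 CPM against 442 ± 119 CPM in T-cells). Ranges were again apart for all 12 genes.

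The parts of the 2 receptor pathways separated almost completely. Of the 20 genes of the B-cell receptor complex and its signalling, 16 were tested and 16 were called higher in B-cells, against 24.7% of all tested genes. Their median log2 difference was 10.74, beside -0.0021 over all genes. This value rests on genes with few or no T-cell counts and moved with the fit, to 8.38 without the replicate block, 13.39 with DESeq2 and 3.87 in the mean of log2(CPM + 1). Because 14 of these 16 passed the detection filter through B-cells alone, the count describes them and is no support for the class difference. Cd79a lay at 2778 to 4030 CPM in B-cells and 0 to 19.1 CPM in T-cells. The 4 members below the filter were Blk, a SRC-family kinase of B-cells, at 117 CPM in B-cells and 0 counts in T-cells, Plcg2 at 119 CPM against 2.16 CPM, Pik3ap1 at 105 CPM against 3.4 CPM and Dapp1 at 95.6 CPM against 27.1 CPM.

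Of the 25 genes of the T-cell receptor complex and its signalling, 22 were tested and 21 were called higher in T-cells (25.7% of all tested genes), with a median log2 difference of -12.19 (-9.76 without the replicate block and -3.39 in the mean of log2(CPM + 1)), and 21 of the 22 had passed the filter through one class alone. The member not called was Rasgrp1, a RAS activator downstream of diacylglycerol, at 119 ± 61.7 CPM in B-cells and 155 ± 70.4 CPM in T-cells (log2 difference -0.41, 95% interval -0.98 to 0.16, adjusted p = 0.225). Rasgrp1 was called higher in T-cells with totals alone (-0.67), with 150000 counts drawn per cell (-0.58) and in the mean of log2(CPM + 1) (-1.365). It was also called higher in T-cells against CD4+ T-cells alone (-1.06), but not against CD8+ T-cells alone (0.54). Its level was 246 CPM in CD4+ and 85.4 CPM in CD8+ T-cells. Below the filter were Cd4, Plcg1 and Trat1.

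Paralogues that take the same step in each pathway differed in how far their counts lay in 1 class. Among the SYK-family kinases, Syk lay at 259 to 612 CPM in B-cells with 1 count in T-cells, and Zap70 lay at 99.1 to 291 CPM in T-cells and at 0 in the B-cells of 9 mice, with 32.5 CPM in the highest mouse. The TEC-family kinase Btk had 57285 counts in B-cells and 0 in T-cells, at least 16609-fold higher against a floor of 3 counts over the class. The adaptor Blnk had 6 T-cell counts and its counterpart Lcp2 (SLP-76) 22 B-cell counts. For the exchange factors, Rasgrp3 was at 236 to 534 CPM in B-cells with 0 T-cell counts, whereas Rasgrp1 was found in both classes and its call depended on the setting.

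Among SRC-family kinases, Lyn was at 161 to 329 CPM in B-cells and 0 to 12 CPM in T-cells. Lck was at 906 to 1822 CPM in T-cells, but 4.5% of B-cells also had a count, and its B-cell level reached 83.1 CPM in the highest mouse (log2 difference -5.72, SE 0.61, adjusted p = 1.03e-05). Fyn lay at 84.2 to 259 CPM in T-cells and 0 to 82.4 CPM in B-cells with a median of 9.25 CPM, and was not called against naive T-cells alone (log2 difference -1.78, beside -4.16). Among protein kinase C genes, Prkcq had 28483 counts in T-cells and 3 in B-cells, whereas Prkcb was present in both classes, at 294 ± 49.9 CPM in B-cells and 55.7 ± 21.9 CPM in T-cells (log2 difference 2.48, SE 0.18, adjusted p = 1.96e-07).

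**Figure D2:**
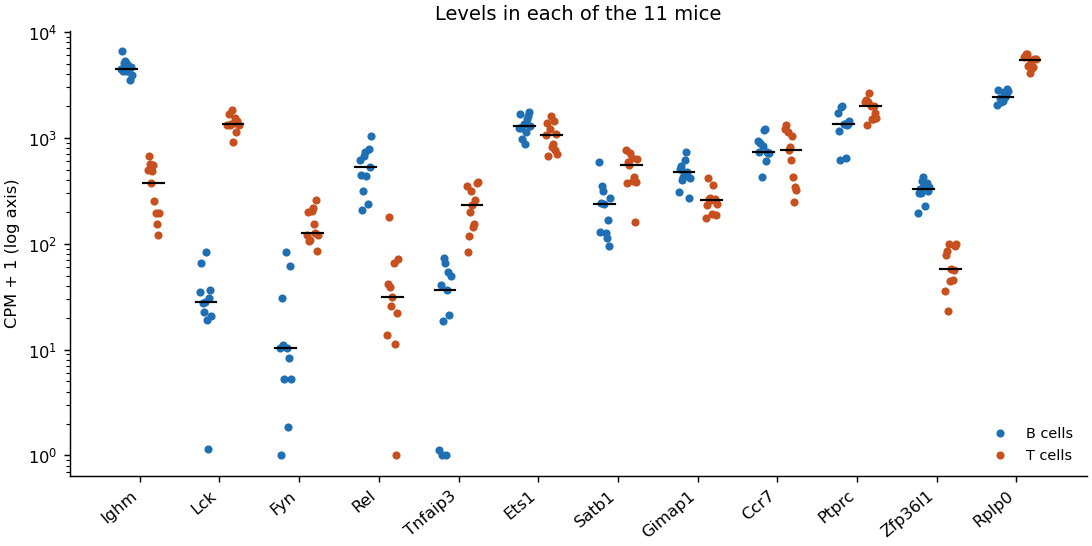
Level of 12 genes in each of the 11 mice, as CPM + 1 on a log axis, with B-cells in blue, T-cells in orange and the median as a bar. Lck, Fyn and Tnfaip3 were higher in T-cells and Ighm, Rel and Zfp36l1 in B-cells, in all 11 mice without overlap. The ranges of Ets1, Ccr7 and Ptprc overlap, although Ptprc was higher in T-cells within each of 11 mice and Ets1 was called higher in B-cells.

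Genes of MHC class II presentation were higher in B-cells. Of 13 genes, 11 were tested and 11 were called higher in B-cells with ranges apart in all, beside 24.7% of all tested genes. The median log2 difference was 15.29 (11.82 without the replicate block and 6.69 in the mean of log2(CPM + 1)), although 10 of the 11 passed the filter through B-cells alone. H2-Eb1, a beta chain of the class II molecule (chromosome 17, 34305867 to 34316674), lay at 2894 to 5144 CPM in B-cells with a median of 3929 CPM, and had 2 counts in T-cells, a ratio of levels of 321546 with a 95% exact Poisson interval from 89013 to 2655113, which covers counting error only. Its activator Ciita lay at 562 to 1019 CPM in B-cells, with 1 count in T-cells. Cd74, the invariant chain, lay at 16087 to 24479 CPM against 0 to 48.2 CPM. H2-DMb1 and H2-DMb2, chains of the peptide exchange factor H2-M, had 2 T-cell counts each, whereas other members were found in T-cells at low levels, with H2-DMa at 60.9 ± 32.2 CPM and H2-Ob at 35.2 ± 26.8 CPM in T-cells, and Ctss, a protease that trims the invariant chain, at 164 ± 66.2 CPM in T-cells and 1265 ± 252 CPM in B-cells. H2-Eb2 and Ifi30 were below the filter, at 89.9 and 72.4 CPM in B-cells.

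The upstream sequence of these genes is shown because the same short elements recur in it. CIITA acts on class II promoters through a conserved set of boxes, among them an X box and a Y box that holds an inverted CCAAT motif. In the RefSeq promoter windows of GRCm38.p6, which cover 250 bases before and 50 after each gene start, 10 of the 13 class II genes had a window, and 7 of them held TGATTGG on either strand. The windows below are given 5′ to 3′ along the gene, with the X element ATGATGC (TGACGTCA in H2-Aa) first and the Y element TGATTGG second, both in capitals.
H2-Eb1, chr17:34305768-34305827, plus strand: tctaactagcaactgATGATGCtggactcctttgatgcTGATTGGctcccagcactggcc
H2-DMb1, chr17:34153089-34153149, plus strand: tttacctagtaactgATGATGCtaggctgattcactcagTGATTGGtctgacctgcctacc
H2-DMb2, chr17:34145118-34145178, plus strand: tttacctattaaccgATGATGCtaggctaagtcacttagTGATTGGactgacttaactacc
H2-Ob, chr17:34238810-34238867, plus strand: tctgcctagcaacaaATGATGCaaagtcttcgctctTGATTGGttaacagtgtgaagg
H2-Aa, chr17:34287852-34287912, minus strand: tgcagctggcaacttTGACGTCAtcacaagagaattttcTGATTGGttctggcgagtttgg

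The first bases of the X and Y elements were 21 to 24 bases apart in the 5 windows, and the Y element began 50 to 92 bases before the gene start. The letters TGATTGG were present in 7.82% of all 32851 promoter windows and ATGATGC in 2.46%. The Y element was also in the windows of 9 of 15 class I presentation genes, among them H2-K1 and H2-D1, and in 10.3% of the windows of genes at least 2-fold higher in B-cells and 8.07% of those 2-fold higher in T-cells, both below the 11.5% over all tested genes. The motifs were chosen after these sequences were seen, and a match of letters is a description only.

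MHC class I presentation, which every nucleated cell uses, had calls in both directions. Of 16 genes tested, 1 was called higher in B-cells and 6 in T-cells, against 24.7% and 25.7% of all tested genes. The counts were 1 and 10 with totals alone, 0 and 12 in the mean of log2(CPM + 1), and 3 and 2 against naive T-cells alone. The median log2 difference was -0.18 (-0.43 with totals alone and -1.19 in the mean of log2(CPM + 1)). Nlrc5, the activator of class I genes, was at 1.07 to 46.9 CPM in B-cells and 42.8 to 260.4 CPM in T-cells (log2 difference -3.13, SE 0.56, adjusted p = 0.000797), and was not called against naive T-cells alone (-2.31). H2-Q7 was at 240.5 ± 80.1 CPM in B-cells and 705 ± 222 CPM in T-cells. H2-T23, a nonclassical class I gene, was the gene called on the B-cell side (213 ± 67.4 against 134 ± 57.5 CPM, adjusted p = 0.0114), and the log2 difference of 0.73 was not called at 1.21 with cells of the lowest contamination class, at 0.60 with no detection filter and at 0.03 in the mean of log2(CPM + 1). H2-D1 was at 3019 ± 656 CPM in B-cells and 3032 ± 803 CPM in T-cells. Genes of the H2-Q and H2-T families are near copies of each other, so their values are uncertain.

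Among 13 of 18 B-lineage transcription factors tested, 12 were called higher in B-cells beside 24.7% of all tested genes, and 7 of the 13 had passed the filter through one class alone. Pax5, which holds B-cell identity, was at 294 to 714 CPM in B-cells and had 4 counts in T-cells, Bcl11a had 16 T-cell counts, and Tcf4 was at 187 to 551 CPM in B-cells against 0 to 11.3 CPM. Pou2af1, the octamer coactivator, was at 96.2 to 289.5 CPM in B-cells and 0 to 13 CPM in T-cells. Ikzf3 was present in both classes, at 314 ± 96.5 CPM in B-cells and 106 ± 47.7 CPM in T-cells, and its relative Ikzf1 was not called (log2 difference 0.40, adjusted p = 0.223, levels of 227 ± 72.2 and 179.8 ± 87.3 CPM). Foxo1 was the B-lineage factor tested and not called.

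Among 10 of 17 T-lineage factors tested, 9 were called higher in T-cells beside 25.7% of all tested genes and Ets1 was called higher in B-cells, and 8 of the 10 had passed the filter through one class alone. Bcl11b, required for T-cell commitment, lay at 74.7 to 616 CPM in T-cells with 5 counts in B-cells, Gata3 had 6 counts in B-cells, and Lef1 was at 59.4 to 879.6 CPM against 0 to 34.7 CPM. Satb1, a chromatin organiser, was present in both, at 511 ± 183 CPM in T-cells and 239 ± 146 CPM in B-cells. Runx3 was at 41.2 ± 17.4 against 20.7 ± 12.3 CPM (log2 difference -1.14), and was not called with no detection filter (-1.28). Ets1 was at 869 to 1756 CPM in B-cells and 676 to 1602 CPM in T-cells (log2 difference 0.36, SE 0.13, adjusted p = 0.0429), with overlapping ranges. The call was lost with totals alone (0.10), against CD4+ T-cells alone (-0.01) or naive T-cells alone, with cells of the lowest contamination class (0.35), with no detection filter (0.22), in mice with at least 20 cells of both classes (0.20), and without mouse 1 (0.27) or mouse 11 (0.29). In the mean of log2(CPM + 1) Ets1 was called higher in T-cells (-0.59).

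The octamer ATTTGCAT, the site that POU2F factors and their coactivator POU2AF1 read, is shown because 2 B-cell receptor signalling genes of the list held it. It was in the promoter windows of Blnk and Prkcb, in capitals below, and in 1.74% of all windows. In Prkcb it lies in the reverse direction.
Blnk, chr19:40994329-40994366, minus strand: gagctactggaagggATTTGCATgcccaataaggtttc
Prkcb, chr7:122289040-122289077, plus strand: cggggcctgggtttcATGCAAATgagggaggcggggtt
Of genes at least 2-fold higher in B-cells, 8 of 311 with a window held the octamer (2.57%), and of those 2-fold higher in T-cells, 0 of 161. Over the tested genes the share was 1.44%. Blnk lay at 306 to 689 CPM in B-cells and at most 0.0896 CPM in T-cells, while Prkcb, with the same letters in its window, was present in both classes as given above.

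Of 12 cytokine receptor genes tested, 2 were called higher in B-cells and 7 in T-cells, beside 24.7% and 25.7% of all tested genes, and 10 of the 12 had passed the filter through one class alone. Against naive T-cells alone the counts were 2 and 4 of 11, and the median log2 difference turned from -1.68 to 0.21. Those of B-cells were Tnfrsf13c, the receptor of the survival factor BAFF, at 351 to 763 CPM and with 25 counts in T-cells, and Tnfrsf13b. Those of T-cells were led by Il7r. The genes Il2rg, Ifnar1 and Tgfbr2 were not called, with log2 differences of 0.27, 0.09 and 0.58. The remaining 11 receptor genes were below the filter.

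Of 18 homing receptors and surface antigens tested, 4 were called higher in B-cells, a share near the 24.7% of all tested genes, and 8 in T-cells (25.7%), and 9 of the 18 had passed the filter through one class alone. Ly6d lay at 2523 to 4534 CPM in B-cells with 6 counts in T-cells. Cxcr6 led the T-cell side. Cxcr5, which guides cells to follicles, was below the filter at 53 to 341 CPM in B-cells and 0 to 41.9 CPM in T-cells. Ccr7, which guides cells into lymph nodes, was not called (819 ± 234 CPM in B-cells and 747 ± 385 CPM in T-cells, log2 difference 0.29, 95% interval -0.23 to 0.80, adjusted p = 0.351). Against naive T-cells alone Ccr7 was called higher in the T-cells (log2 difference -0.61).

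Pairs of co-stimulatory ligand and receptor, ICOSL with ICOS and CD40 with its ligand, had almost all counts in opposite classes. Cd28 was at 236 to 1029 CPM in T-cells and 0 to 5.61 CPM in B-cells. Cd226 had 47317 counts in T-cells and 0 in B-cells, at least 18134-fold higher. Icosl was at 84.7 to 269 CPM in B-cells with 12 counts in T-cells, while its receptor Icos was at 13.8 to 206 CPM in T-cells with 10 counts in B-cells. Cd40 had 33336 counts in B-cells and 1 in T-cells. Its ligand Cd40lg had 1 in B-cells and 17019 in T-cells, at 243 CPM in CD4+ and 0.0339 CPM in CD8+ T-cells. Icos, Cd40 and Cd40lg were below the filter and were not tested. Of 12 genes of this list tested, 5 were called higher in B-cells and 3 in T-cells (4 and 4 with totals alone), beside 24.7% and 25.7% of all tested genes, and 5 of the 12 had passed the filter through one class alone. Against CD4+ T-cells alone the counts were 3 and 5 of 14. In the mean of log2(CPM + 1) they were 5 and 6, and the median log2 difference turned from 0.28 to -0.27.

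Of 19 Fc, complement and Toll-like receptors, 8 were tested and all 8 were called higher in B-cells beside 24.7% of all tested genes, 7 of them having passed through B-cells alone. Fcer2a (CD23) was at 682 to 1327 CPM in B-cells and had 0 counts in T-cells, at least 53887-fold higher. The 11 untested members included Tlr7 (16.6 CPM in B-cells) and Tlr9 (5.06 CPM).

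Cytotoxic and effector genes had most calls on the T-cell side. Of 20 genes, 10 were tested, each having passed the filter through one class alone, and 9 were called higher in T-cells beside 25.7% of all tested genes. Plac8 was called higher in B-cells (545 ± 185 against 165 ± 92.6 CPM, log2 difference 1.87, SE 0.37, adjusted p = 0.00139, higher in 10 of 11 mice), and was not called against CD4+ T-cells alone, at a log2 difference of 1.80. Natural killer cell markers moved with these genes, with Klrb1c and Eomes each in 43 T-cells and 0 B-cells and Prf1 in 42 T-cells and 2 B-cells, and their part was not tested. Nkg7, a granule protein, was found in 62.9% of T-cells at 569 to 2531 CPM with 8 counts in B-cells. Among S100 proteins, annexins and their neighbours, 6 of 8 tested were called higher in T-cells beside 25.7% of all tested genes (4 of the 8 passed the filter through one class alone). Against naive T-cells alone 1 of 6 tested was called higher in T-cells and 2 in B-cells, and the median log2 difference turned from -0.76 to 0.91. The T-cell genes included S100a6 at 394 ± 293 CPM in T-cells against 41.1 ± 40.4 CPM. Vim, an intermediate filament, was called higher in B-cells (272 ± 119 against 156 ± 122 CPM, adjusted p = 0.0091), at a log2 difference of 1.10. The call was lost at like or larger differences with cells of the lowest contamination class (1.04), with no detection filter (0.97) and against CD4+ (1.59) or naive T-cells alone (3.25), and also without the replicate block (0.80) and in the mean of log2(CPM + 1) (-0.04). The naive share of the T-cells of a mouse ran from 0 to 79.6%, and its part in these values was not tested beyond the comparison with naive T-cells alone.

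Of 13 genes tested of 26 in a list of NF-kB, survival and apoptosis genes, 7 were called higher in B-cells and 2 in T-cells (7 and 6 in the mean of log2(CPM + 1)), beside 24.7% and 25.7% of all tested genes, and 8 of the 13 had passed the filter through one class alone. Rel, the NF-kB subunit c-REL, lay at 205 to 1050 CPM in B-cells with a median of 524 CPM and at 0 to 177 CPM in T-cells with a median of 30.1 CPM (log2 difference 4.18, SE 0.75, adjusted p = 0.000771). Tnfaip3, which encodes the inhibitor A20, went the other way, at 0 to 72.4 CPM in B-cells and 82.7 to 385 CPM in T-cells (log2 difference -3.69, SE 1.07, adjusted p = 0.015), and was not called with no detection filter (-3.81). The ranges of both genes were apart. The survival gene Bcl2 was higher in T-cells (491 ± 135 against 151 ± 43.6 CPM) and Mcl1 in B-cells (313 ± 88.1 against 97.3 ± 33.4 CPM), both chosen here after their values were seen.

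Among 14 immediate early genes tested, 6 were called higher in B-cells and 1 in T-cells, beside 24.7% and 25.7% of all tested genes, and 4 of the 14 had passed the filter through one class alone. The counts were 4 and 3 with totals alone and 2 and 8 in the mean of log2(CPM + 1), where the median log2 difference turned from 0.47 to -0.62. Zfp36l1, an mRNA decay factor that restrains proliferation, was at 196 to 424 CPM in B-cells and 22.1 to 98.4 CPM in T-cells. Klf6 was the T-cell gene, at 1131 ± 305 against 584 ± 109 CPM. Fos, Jun and Dusp1 were not called (log2 differences of 0.45, -0.43 and -0.27).

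GIMAP genes encode GTPases of lymphocyte survival that lie together on chromosome 6, and the family had calls in both directions. Of 8 genes, 3 were called higher in T-cells, 1 in B-cells and 4 were not called, beside 25.7% and 24.7% of all tested genes. The counts were 5 and 1 with totals alone and 7 and 0 in the mean of log2(CPM + 1). TMM scaling gave a median log2 difference of -0.22. Gimap9 was at 429 ± 124 CPM in T-cells and 187 ± 98.2 CPM in B-cells (log2 difference -1.47, adjusted p = 0.0338), and was not called with cells of the lowest contamination class (-1.43), with no detection filter (-1.59) or against naive T-cells alone (-1.07). Gimap1 was higher in B-cells in 11 of 11 mice (267 to 734 against 174 to 413 CPM, log2 difference 0.86, SE 0.11, adjusted p = 6.78e-05), but was not called against CD4+ T-cells alone, and lay at -0.04 in the mean of log2(CPM + 1).

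Of 12 immunoglobulin constant genes 6 were tested and 6 were called higher in B-cells, and of 7 constant genes of the T-cell receptor 3 were tested and 3 were called higher in T-cells, beside 24.7% and 25.7% of all tested genes. Of these, 5 of the 6 and 3 of the 3 had passed the filter through one class alone, so the counts only describe them. The exception to exclusivity was Ighm, with a count in 51.1% of T-cells and a median of 316.5 counts in those cells, beside 1200.5 counts in B-cells. The share ranged from 30.3% to 74.2% over the T-cells of the 11 mice and from 33.3% in effector CD4+ to 69.2% in regulatory T-cells, while Ighd, on the same locus, was found in 1.82% of T-cells. The T-cell level of Ighm was 119 to 674 CPM against 3553 to 6551 CPM in B-cells, and the source of these counts was not tested. Of the plasma cell genes, Mzb1 was at 45.4 to 114 CPM in B-cells with 0 counts in T-cells, and Jchain was found in 3 B-cells. All 16 immunoglobulin segments and constant genes tested were called higher in B-cells and all 8 of the T-cell receptor in T-cells.

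Most ribosomal protein genes were called higher in T-cells. Of 81 ribosomal protein genes tested of 85, 71 were called higher in T-cells against 25.7% of all tested genes, 1 in B-cells, and the median log2 difference was -0.35 (-0.61 with totals alone). Their share of all counts was 7.26% to 10.9% in the B-cells of the mice with a median of 9.23%, and 10.8% to 16.1% in T-cells with a median of 13.9%. Rplp0, a stalk protein, was at 2043 to 2865 CPM in B-cells and 4143 to 6260 CPM in T-cells (log2 difference -1.08, SE 0.06, adjusted p = 2.31e-08). Fau was the gene called higher in B-cells (1905 ± 374 against 1620 ± 253 CPM, log2 difference 0.22, adjusted p = 0.0491), and its call was lost without the replicate block, with no detection filter, with cells of the lowest contamination class, against CD8+ or naive T-cells alone, in mice with at least 20 cells of both classes and without mouse 1 or mouse 11. Its sign turned with totals alone (-0.03) and in the mean of log2(CPM + 1) (-0.05). Against CD4+ T-cells alone 30 ribosomal genes were called higher in T-cells and against CD8+ T-cells alone 74 of 82. These comparisons share the B-cell sums, and the CD4+ sums rest on 3 to 21 cells a mouse.

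Lists of metabolism and protein breakdown differed in their share of calls. Of 69 nuclear genes of oxidative phosphorylation, 2 were called higher in B-cells and 13 in T-cells, both below the 24.7% and 25.7% of all tested genes, and the median log2 difference was -0.11. With totals alone the counts were 1 and 38 of 69, beside 623 and 1545 of all 3843 genes, and in the mean of log2(CPM + 1) they were 1 and 67, so the share on the T-cell side depended on the scale. Ndufs8 was at 230.4 ± 74.6 CPM in B-cells and 118 ± 44.9 CPM in T-cells, and Ndufa10 at 86.3 ± 31.6 and 154 ± 55.9 CPM. Neither was called against CD4+ T-cells alone (log2 differences of 1.48 and -0.54, beside 1.01 and -0.84). Ndufa10 was also not called against CD8+ T-cells alone (-0.67) or with cells of the lowest contamination class (-0.34). Of 31 proteasome genes tested, 12 of which passed the filter through one class alone, 3 were called on each side, beside 24.7% and 25.7% of all tested genes. The counts were 1 and 11 with totals alone, beside 623 and 1545 of all 3843 genes. In the mean of log2(CPM + 1) they were 0 and 27, beside 420 and 2506 of all genes. The called genes were led by Psmd8 in B-cells (211 ± 56.4 against 138 ± 30.5 CPM) and by Psme2, an activator induced by interferon, in T-cells (679 ± 84.8 against 319.9 ± 106 CPM, log2 difference -1.16, adjusted p = 5.38e-05). Psmd8 was not called with cells of the lowest contamination class (0.09), against naive T-cells alone (1.35), with no detection filter (0.47) or in the mean of log2(CPM + 1) (-0.03), beside 0.60 here. Mitochondrial transcripts were called higher in B-cells for 7 of 13 genes with TMM scaling, beside 24.7% of all tested genes. They were led by mt-Cytb (5769 ± 1150 against 4086 ± 766 CPM). With totals alone 1 of 13 was called higher in B-cells and 2 in T-cells, and the median log2 difference went from 0.23 to -0.02. The excess on the B-cell side was thus lost with that scale. Of 5 glycolysis genes tested, 3 were called higher in T-cells beside 25.7% of all tested genes (5 with totals alone, 1 without the replicate block, with cells of the lowest contamination class, against CD8+ T-cells alone or against naive T-cells alone), with Ldha at 313 to 715 CPM against 78.6 to 264 CPM in B-cells.

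Of 30 genes of the actin cytoskeleton, 10 were called higher in B-cells and 6 in T-cells, beside 24.7% and 25.7% of all tested genes. The counts were 6 and 10 with totals alone, 2 and 19 in the mean of log2(CPM + 1), and 13 and 3 of 29 against naive T-cells alone. Capg, which caps actin filaments, was at 225 to 576 CPM in B-cells and 0 to 169.9 CPM in T-cells. Tmsb10, a thymosin that binds actin monomers, had the smallest standard error of the 93 named genes, at 2905 to 3833 CPM in B-cells and 6043 to 7515 CPM in T-cells (log2 difference -1.01, SE 0.04, adjusted p = 5.77e-10). Among 20 housekeeping and pan-leukocyte genes, 15 were tested and 6 were called on each side, beside 24.7% and 25.7% of all tested genes (4 in B-cells and 7 in T-cells with totals alone, 1 and 8 in the mean of log2(CPM + 1)). Cd37, a tetraspanin, was at 674 ± 142 CPM in B-cells and 121 ± 56.6 CPM in T-cells, and Hprt was higher in T-cells (247 ± 96.3 against 158 ± 52.4 CPM), but not called with cells of the lowest contamination class (-0.15) or against naive T-cells alone (-0.20), beside -0.65 here. Log2 differences within 0.5 of 0 over the whole 95% interval were found for Actb (0.14), Cd53 (0.08), Arhgdib (0.32), Cd52 (0.33) and Ppia (-0.37). Of these, Ppia (T-cells higher in 11 of 11 mice), Arhgdib and Cd52 (both higher in B-cells) were called, and Actb and Cd53 were not. With totals alone Cd53 (-0.18) and Actb (-0.12) turned sign, and Arhgdib (0.06) and Cd52 (0.07) were not called. Over all genes 517 (13.5%) met this bound.

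**Figure D3:**
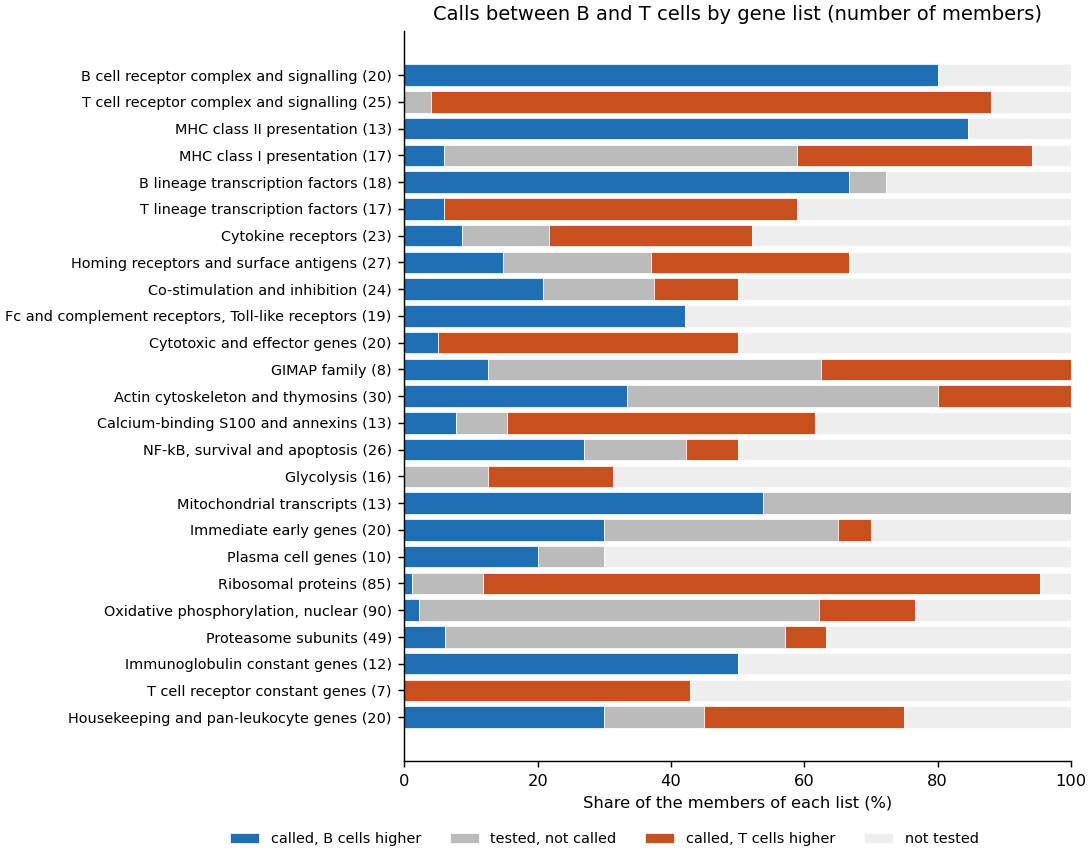
Share of the members of each of 25 gene lists (number of members in parentheses) that were called higher in B-cells (blue), called higher in T-cells (orange), tested and not called (grey) or not tested (pale). Among the members tested, those of the B- and T-cell receptor and MHC class II lists are of one colour or nearly so, many lists hold pale members, ribosomal proteins are mostly orange, and the GIMAP, actin and housekeeping lists hold both colours.

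The cell sets behind the sums bore on how many genes were called. With cells taken by the 6-gene gate and those 6 genes left out, 1872 of 3837 genes were called, and 1796 of the 1920 genes called above and tested there were called again in the same direction. Among genes at least 2-fold apart, 686 of 694 were called again. Of the 589 B-cells and 298 T-cells of the gate, 581 and 293 were annotated as such. The gate thus reused nearly the same cells, and its calls are no independent check. With cells of the lowest red blood cell contamination class alone (367 B-cells and 178 T-cells), 1081 of 4015 genes were called, and 525 of 695 genes at least 2-fold apart were called again. No called gene was called in the other direction in either set. CD4+ T-cells alone gave 982 of 3586 called genes, among them 923 of the 1854 genes called above and tested there, CD8+ T-cells alone 1871 of 4158 and naive T-cells alone 1483 of 3517 in 10 mice, and these 3 comparisons share the B-cell sums. Against naive T-cells alone 3 genes were called in the other direction. The CD4+ sums held 3 to 21 cells a mouse, the CD8+ sums 7 to 29 and the naive sums 4 to 39. A call lost in them can come from fewer cells and shows no difference between T-cell types, which were not tested against each other.

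T-cells had more RNA counts and more genes. At 150000 counts drawn per cell, B-cells had 2063 ± 210 genes (SD, n = 11 mice) and T-cells 2492 ± 368, and T-cells had more in 11 of 11 mice (mean difference -429 ± 189, exact sign-flip permutation test, two-sided, p = 0.000977, the smallest that 11 pairs allow). Total counts per cell were 337773 ± 31621 in B-cells and 481825 ± 100980 in T-cells, with T-cells higher in 11 of 11 mice (exact sign-flip permutation test, p = 0.000977). Without thinning, the number of genes was 2462 ± 272 and 3135 ± 524. Reads carry no molecular identifiers, so the total per cell reflects RNA content and library yield together.

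**Figure D4:**
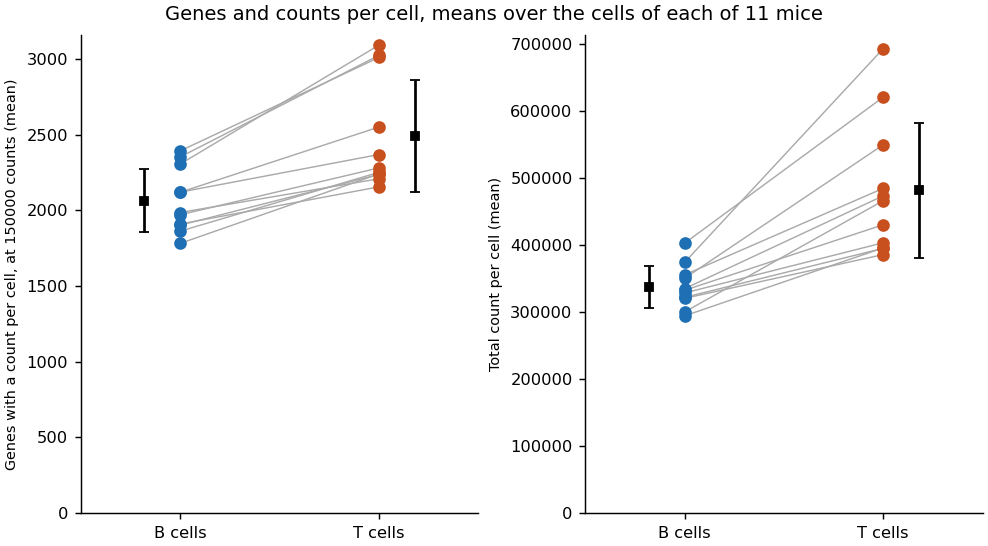
Genes with a count per cell after a draw of 150000 counts (left) and total count per cell (right), as means over the B-cells (blue) and T-cells (orange) of each mouse, joined by lines, with the mean and SD of 11 mice as black squares and bars. Each line goes up from B- to T-cells.

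Few genes had a class difference that changed with age. In a test of whether the B minus T difference of a gene had a slope on age, 1 of 3843 genes was called (0.026%), and 307 had an unadjusted p below 0.05. With DESeq2 the number was 59. The gene called was Ccr7, the receptor that leads naive lymphocytes into lymph nodes (chromosome 11, 99144196 to 99155077). In T-cells its mean level was 1257 ± 83.4 CPM at 10 weeks, 902 ± 193 CPM at 36 weeks, 696 ± 317 CPM at 77 weeks and 303 ± 48.0 CPM in the oldest group, where the 3 mice lay at 249, 318 and 341 CPM. In B-cells the means were 837 ± 140, 718 ± 254, 1003 ± 347 and 727 ± 10.6 CPM in the same order (SD, 2 to 3 mice a group). The difference rose by 0.22 on the log2 scale per 10 weeks (SE 0.030, edgeR adjusted p = 0.0638). T-cells were higher in both mice of 10 weeks and B-cells in all 3 of the oldest mice.

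The naive share of T-cells moved with this result, at 74.2% to 79.6% of the T-cells of the mice at 10 weeks and 0 to 22.2% in the oldest group, and its part in the slope was not tested beyond the next value. Against naive T-cells alone the slope was 0.05 (adjusted p = 1). Against CD8+ and CD4+ T-cells alone it was 0.20 and 0.43, and neither was called. Leaving out a mouse gave slopes of 0.20 to 0.24, and the call was lost without any of 7 of the 11 mice. The raw file names carry the word lane with a number. The paper describes pooling of cells per sequencing lane but does not say what this number stands for. The slope was 0.15 in the 4 mice with number 1 and 0.20 in the 6 mice with number 2, with no call in either.

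**Figure D5:**
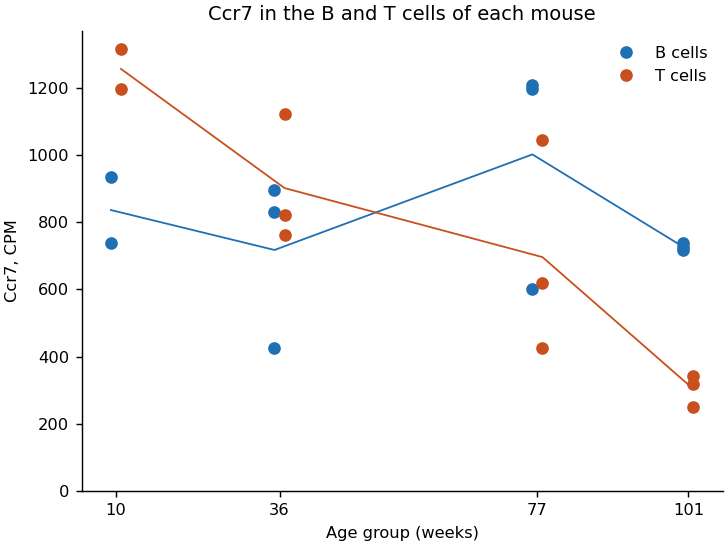
Ccr7 level in CPM in the B-cells (blue) and T-cells (orange) of each mouse by age group in weeks (the oldest at the right), with lines through the group means. T-cell values decline from 1257 to 303 CPM across the groups and B-cell means stay between 718 and 1003 CPM.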

How the data were processed

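RNA and DNA methylation were read from single blood cells (scM&T-seq) of 11 mice, and the 1055 cells of the deposited table were held in 2 sample records. Whole-number counts per gene (38788 genes) were made by the authors from reads trimmed with Trim Galore 0.6.7, aligned to GRCm38 with STAR and counted with featureCounts, with no molecular identifiers. Such reads are not independent molecules, so counting intervals and floors cover counting error only.

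The annotation, mouse, age and contamination class of each cell were taken from the study's supplementary data by cell identifier. The mouse is the replicate. Counts were summed per mouse over B-cells and over T-cells, scaled with TMM factors and tested with edgeR 4.0.16 in R 4.3.3 (quasi-likelihood, robust, mouse as a block) over all genes with 1 count in at least 25% of either class. Adjusted p-values are by Benjamini-Hochberg. Age was tested as class by age slope per 10 weeks. CPM are TMM-scaled, and floors are 3 counts over a class. Same-numbered sums come from the same animal, and their deviations from the class means correlated at r = 0.0772 to 0.195, over 0.1 in 8 of 11 mice. Doublets were not called here, and cells with markers of both classes were left out in an alternative. The fit was first tested on simulated data. limma 3.58.1 and DESeq2 1.42.0 gave alternatives.

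The classes, gene lists and motifs were chosen with earlier results of these data known. Named genes were, on each side, the first 12 by p among those called, at least 2-fold and of one direction in all 11 mice. Immunoglobulin and T-cell receptor segments and constant genes were left out of these 12. The rule also took list members with the largest called fold or called against the side of their list, fixed pairs of genes (paralogues, ligands with receptors, and unrelated counterparts), genes called by age, and housekeeping genes with an interval within 0.5 of 0. Some genes that this rule takes are not reported here. Other genes named were chosen after their values were seen. Cells of other types and those with no annotation were not analysed here, and neither was DNA methylation.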

Additional observations from a re-analysis of the deposited data

Results flagged for a closer look

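The B minus T difference of Ccr7 changed with age, by 0.22 on the log2 scale per 10 weeks (SE 0.030, edgeR adjusted p = 0.0638), tested as the class by age slope in 11 mice. The slope per 10 weeks was positive in all alternatives run, from 0.05 against naive T-cells alone to 0.43 against CD4+ T-cells alone, and neither of these slopes was called.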

How the results depend on the processing

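Of 1937 genes called between the classes, leaving out a mouse gave 1785 to 1901, and leaving out the replicate block gave 1751. The count moved by over 1.5 times against CD4+ T-cells alone (982), with cells of contamination class 0 alone (1081) and with limma on the mean of log2(CPM + 1) (2926). Library totals alone, an alternative chosen after seeing the data together with naive T-cells and the lane number of the raw file names for age, gave 2168 (623 higher in B-cells and 1545 in T-cells). The cause was not tested.

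Values of single genes turned sign with limma for Ets1 (-0.59), Gimap1 (-0.043), Vim (-0.036), Fau (-0.055), Psmd8 (-0.025), Ikzf1 (-1.11), Arhgdib (-0.092) and Cd53 (-0.90), with totals alone for Fau (-0.033) and Cd53 (-0.18), against CD4+ T-cells alone for Ets1 (-0.0093) and against naive T-cells alone for Ccr7 (-0.61). Of the other values of named genes over all alternatives, 2145 kept their direction and their side of the threshold, 47 lost the call, 9 gained it and 6, Actb with totals alone (-0.12) among them, turned sign with no call in either setting.

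For the slope on age, 1 gene was called. DESeq2 gave 59 and CD4+ T-cells alone 6, while CD8+ T-cells alone, naive T-cells alone, the mice with lane number 1 or 2 in the raw file names and no detection filter each gave 0. Leaving out a mouse gave 0 to 4. Of the alternatives for Ccr7, 7 kept the call and 16 lost it. With 10 to 49 T-cells a mouse, genes found in few cells rest on few reads.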
